A study of Mus musculus with 4 samples.

Results

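Hox-negative Dcn fibroblasts are mesenchymal cells, from libraries of embryonic mouse thymic lobes, that express decorin and lack transcripts of the posterior Hox genes. They numbered 1504 of the 31105 cells deposited for 4 libraries. The droplet method counts each transcript once by its unique molecular identifier (UMI). Cells with under 200 detected genes, or with mitochondrial genes above 10% of the UMIs, were left out, and 29510 remained. A cell passed the mesenchymal gate with at least 4 of the 8 genes Pdgfra, Pdgfrb, Twist1, Prrx1, Dcn, Lum, Postn, and Fbn1 detected and no UMI of Epcam, Ptprc, or Cdh5, and 9258 cells did. Members then had at least 5 UMIs of Dcn, no UMI of Hox groups 6 to 13, no Col2a1, no Kcnj8, fewer than 10 UMIs of Acta2, and at most 1 of Top2a. Members were thus chosen by the measured UMIs of these genes, which are described here and not compared.

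The study asked how drugs that restore growth of a small thymus act on its cells. All embryos came from Tbx1+/neo2 intercrosses and were taken at E13 to 13.5. Injections were given to the pregnant mothers at E8, at E9, and again at E10. One library each was made from thymic lobes of Tbx1+/+ embryos given carrier (5% ethanol in PBS), Tbx1neo2/neo2 embryos given the same carrier, Tbx1neo2/neo2 embryos given minoxidil (200 µl at 0.55 mg/ml), and Tbx1neo2/neo2 embryos given PGE2 (90 µl at 3.6 ng/µl). In the neo2 allele an intronic neomycin cassette lowers the normal Tbx1 transcript without removing it, in every cell that uses the gene. Lobes were pooled for hypoplastic tissue, and how many embryos each library holds is not given in the sources used here. With 1 library per condition there are no replicates. The intervals given are exact at 95% and cover counting error only, and no difference between embryos can be tested.

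The fetal thymus is wrapped in a capsule of mesenchyme derived largely from the neural crest. These cells deposit collagens and proteoglycans and supply growth factors, among them Fgf10, Fgf7, Bmp4, and the insulin-like growth factors, to the thymic epithelium. Decorin is a small leucine-rich proteoglycan that binds collagen fibrils. Hox genes of low group number are active in the pharyngeal region, and those of higher number mark more posterior parts of the body.

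In the Tbx1+/+ carrier, Tbx1neo2/neo2 carrier, minoxidil, and PGE2 libraries, 654, 500, 208, and 142 cells met the rule. The deposited UMIs summed to 292687940, 194023208, 151740600, and 156363845 over all cells of these libraries. The median depth of members was 13850, 13091.5, 24344, and 20677.5 UMIs, with a median of 3840.5, 3657.5, 5137.5, and 4637.5 detected genes. The summed UMIs of the members, over which all levels are scaled to counts per 1000000 (CPM), were 9530092, 6730032, 5169913, and 2844223. Of the mesenchymal-gate cells, 27.0% (25.2 to 28.8) were members with Tbx1+/+ carrier and 9.61% (8.82 to 10.4) with Tbx1neo2/neo2 carrier. The share was 24.1% (21.3 to 27.1) with minoxidil and 18.5% (15.8 to 21.4) with PGE2. Over this denominator the Tbx1neo2/neo2 carrier interval lay below the other 3. Of all cells kept, members were 5.70% with Tbx1+/+ carrier, 4.68% (4.29 to 5.10) with Tbx1neo2/neo2 carrier, 6.50% with minoxidil, and 3.42% (2.89 to 4.02) with PGE2, which was then the lowest. When the rule was applied to cells thinned to 5000 UMIs, with at least 2 UMIs of Dcn, the shares of gate cells were 39.8%, 21.5%, 43.2%, and 42.8%. Fewer of these cells and less Dcn RNA per cell cannot be told apart near the limit, where 21, 28, 2, and 1 members held exactly 5 Dcn UMIs and 24, 26, 5, and 3 cells with 4 were just outside.

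The other mesenchymal-gate cells differed between the libraries as well. Cells with a Col2a1 UMI, the collagen of cartilage, were 40.8% of the gate in the Tbx1neo2/neo2 carrier library and 1.20%, 1.74%, and 1.30% in the Tbx1+/+, minoxidil, and PGE2 libraries. Cells with a UMI of Kcnj8, a pericyte channel, and none of Col2a1 were 8.80% of the gate there and 55.5%, 64.1%, and 65.4% elsewhere. Of gate cells with at least 5 Dcn UMIs, 58.0% carried a posterior Hox UMI in the Tbx1neo2/neo2 carrier library, against 1.03%, 1.27%, and 3.52% in the Tbx1+/+, minoxidil, and PGE2 libraries. The absence of posterior Hox transcripts therefore removed many cells from 1 library and few from the others. The labels name only thymic lobes, and whether members of the Tbx1neo2/neo2 carrier library lay in the lobes or in other tissue taken with them cannot be told apart. Every value of that library below is subject to this limit. One member barcode was shared between the Tbx1+/+ carrier and minoxidil libraries, and none between the other pairs.

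**Figure D1:**
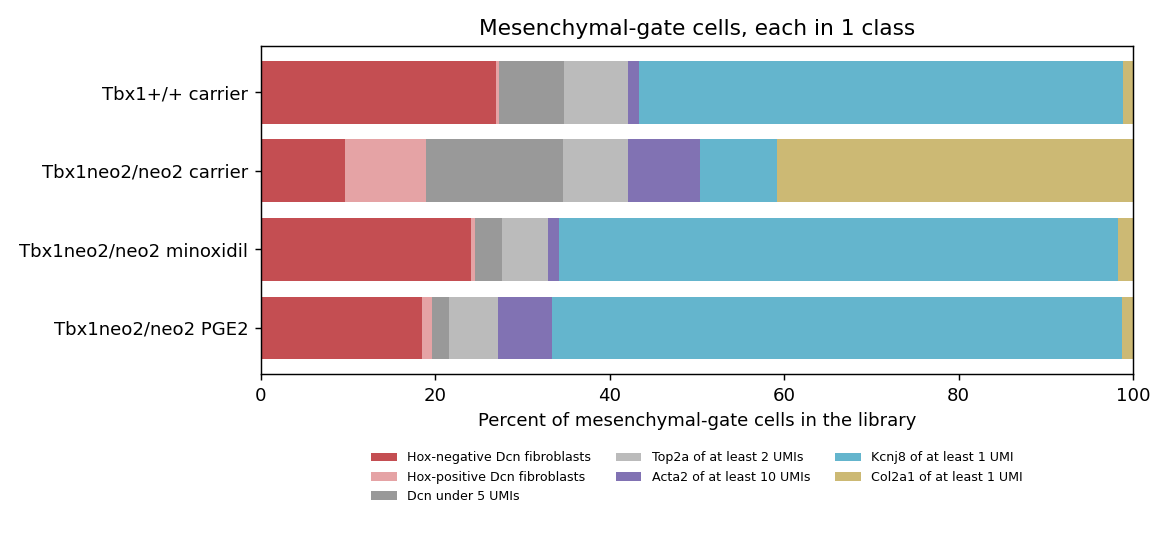
Percent of mesenchymal-gate cells (x axis) in each library (y axis) by class, with every cell in 1 class. Hox-negative Dcn fibroblasts take 27.0% of the bar in the Tbx1+/+ carrier library and 9.61% in the Tbx1neo2/neo2 carrier library, where the class with Col2a1 takes 40.8%.

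Tbx1, the gene altered by the neo2 allele, was near the limit of detection in members, at 5.04, 4.61, 8.51, and 2.11 CPM in the Tbx1+/+ carrier, Tbx1neo2/neo2 carrier, minoxidil, and PGE2 libraries. It was called in no library comparison, and at so low a level a difference between the genotypes can go undetected. The markers of the label were present in every library. Dcn, which the rule required, had a median of 26, 19, 57, and 68 UMIs per member in the Tbx1+/+ carrier, Tbx1neo2/neo2 carrier, minoxidil, and PGE2 libraries. Igf1, the growth factor that serves as the study's marker of capsular fibroblasts, stood at 817, 607, 897, and 888 CPM. After thinning to 5000 UMIs, 83.9%, 67.3%, 86.3%, and 81.4% of members had an Igf1 UMI (93.9%, 78.6%, 95.2%, and 91.5% unthinned). Ptprc-positive cells, which can include macrophages that express Igf1, had one in 10.3%, 23.7%, 15.5%, and 10.6% after the same thinning, at median depths of 24120, 19060, 35810, and 28120 UMIs before it. In all 4 libraries a larger share of members than of Ptprc-positive cells had an Igf1 UMI, and its level in members was lowest in the Tbx1neo2/neo2 carrier library. Col1a1, the main chain of type I collagen, was at 2542, 2468, 3055, and 3747 CPM. Postn (periostin), part of the gate, was at 535, 741, 657, and 833 CPM. Ogn (osteoglycin), a proteoglycan of connective tissue, was uneven, as described below, with a UMI in 294 of 490 thinned Tbx1neo2/neo2 carrier members and in 24.7%, 27.0%, and 46.4% of Tbx1+/+, minoxidil, and PGE2 members (76.4%, 42.3%, 57.7%, and 69.0% unthinned). At most 2.54% of thinned Ptprc-positive cells had one in any library.

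Markers of other cell types were measured in the members as well. Sox10 and Foxd3, which mark neural crest and glia, were at 0 in all 4 libraries, and Acan, the cartilage proteoglycan, had at most 0.149 CPM. The cartilage marker list, with Col2a1 at 0 by the rule, summed to 61.9, 165, 95.8, and 70.7 CPM in the Tbx1+/+ carrier, Tbx1neo2/neo2 carrier, minoxidil, and PGE2 members, most of it Sox9. The 4 mesothelial markers summed to 198, 46.1, 140, and 66.1 CPM in the same order, with Wt1 the most abundant (82.5, 33.1, 88.0, and 48.9 CPM). After thinning, a Wt1 UMI was found in 24.6% of Tbx1+/+, 11.02% of Tbx1neo2/neo2 carrier, and 26.5% of minoxidil members (40.2%, 17.8%, and 51.4% unthinned), and in 28 of 140 PGE2 members, against at most 0.263% of Ptprc-positive cells. The smooth muscle list summed to 75.5, 183, 50.5, and 95.3 CPM and was led by Tagln. Pericyte markers other than Kcnj8 were led by Ebf1, and the list summed to 294, 235, 331, and 438 CPM. Myogenic markers summed to 30.9, 10.1, 31.7, and 14.8 CPM, nearly all of it Des, while Myod1 was at most 0.297 CPM. The endothelial, hematopoietic, macrophage, and glial lists each stayed under 12 CPM in every library, and the epithelial list was at 34.6, 11.3, 15.9, and 15.8 CPM. Parathyroid markers, which include the hormone gene Pth, were at 16.4 CPM in Tbx1+/+ members and under 0.8 CPM elsewhere. The part of these other cell types in the differences below was not tested. Hemoglobin RNA sat in few cells. The 7, 3, 0, and 2 members with over 1% hemoglobin UMIs held 97.7%, 91.9%, none, and 97.9% of those UMIs, so hemoglobin genes are not described further.

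The libraries also differed in the sex of their cells. By Xist and 4 Y-linked genes, the typed members were 147 female and 420 male in the Tbx1+/+ carrier library and 29 female and 414 male in the Tbx1neo2/neo2 carrier library. With minoxidil 202 were female and 0 male, and with PGE2 0 were female and 131 male. Sex and drug therefore cannot be told apart between the minoxidil and PGE2 members, and each drug library was also compared with carrier cells of its own sex.

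The Tbx1neo2/neo2 carrier library was first set against the Tbx1+/+ carrier library. Genes needed 20 UMIs over both libraries to be tested, and were called where the levels were 1.5-fold or more apart and their intervals were separate. The gene lists were chosen with earlier results of these data known, so their counts describe the libraries and are no independent evidence. In the Tbx1neo2/neo2 carrier members, 12 of 17 tendon and connective tissue genes were higher and 3 lower, and Aspn and Fibin were among the higher genes of connective tissue. In female cells alone 3 of 9 were higher and 1 lower (median -0.29), and the intervals of Aspn overlapped. Of 18 immediate early genes, 15 were lower, among them Fos and Atf3. The transcription factors Barx1, Tcf21, and Hand2 of foregut and pharyngeal mesenchyme were lower as well, except in female cells, where Barx1 was higher and the other genes were not called. Igf1 and Gata6 were not called. Of 12495 genes, 554 (4.43%) were higher and 909 (7.27%) lower, and the median log2 ratio of all genes tested was -0.04. In female cells alone, with 29 Tbx1neo2/neo2 carrier cells, 91 (1.04%) of 8755 genes were higher and 186 (2.12%) lower. Female list counts below are to be read beside these smaller shares. Many lists also had fewer tested genes there, so their medians can rest on unlike genes.

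The tendon and connective tissue list, chosen with earlier results known, had 17 tested genes. Of these 12 were higher, 3 lower, and 2 not called, with a median log2 ratio of 1.58. In female cells alone the median turned to -0.29, with 3 genes higher and 1 lower of 9 tested. Aspn (asporin, ENSMUSG00000021388, chr13:49544443-49567565 of mm10, plus strand) is a small leucine-rich proteoglycan that binds collagen. Its level was 8.19 CPM (6.47 to 10.2) in the Tbx1+/+ carrier, 274 (261 to 286) in the Tbx1neo2/neo2 carrier, 5.22 (3.44 to 7.60) in the minoxidil, and 23.6 (18.3 to 29.9) in the PGE2 library. The Tbx1neo2/neo2 carrier value stood far above the other 3, and the log2 ratio to Tbx1+/+ was 5.06 (4.68 to 5.47). In female cells alone the intervals overlapped, at 5.284 CPM (2.638 to 9.454) with Tbx1+/+ carrier and 21.44 (9.255 to 42.24) with Tbx1neo2/neo2 carrier. Those levels rest on 11 and 8 UMIs. After thinning, 40.8% of Tbx1neo2/neo2 carrier members had an Aspn UMI, against 1.84%, 1.47%, and 6.43% in the Tbx1+/+, minoxidil, and PGE2 libraries (53.2%, 5.96%, 7.69%, and 14.8% unthinned, in the same order). In Ptprc-positive cells the thinned shares were 0.424%, 0%, 0%, and 0.813%.

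Ogn, which was not on that list, lies near Aspn on the same chromosome (chr13:49608046-49624501, plus strand). It was at 86.0, 345, 80.1, and 211 CPM, and the Tbx1neo2/neo2 carrier level was 4.01-fold that of Tbx1+/+. Fibin, a secreted factor first described in fin bud development (chr2:110360917-110363183, minus strand), was at 28.8, 318, 30.8, and 123 CPM, an 11.1-fold difference. In female cells of the carrier libraries Fibin was at 15.37 (10.51 to 21.7) and 58.95 CPM (36.94 to 89.25), a smaller difference. Over all cells Ogn and Fibin shared the order Tbx1neo2/neo2 carrier, PGE2, and then the remaining libraries. Thbs4, a matricellular protein of tendon, had 5 UMIs in the Tbx1+/+ library and 42.2 CPM in the Tbx1neo2/neo2 carrier library. Scx, the transcription factor of tendon progenitors, was at 35.5 and 106 CPM in all cells, and at 32.7 and 26.8 CPM in female cells, where it was not called. Meox2, a homeobox factor of limb and body muscle mesenchyme, was at 3.46 and 46.8 CPM. Zfhx4, a zinc finger and homeobox factor (57.3 and 238 CPM), and Tnmd, a tendon membrane protein (1.26 and 7.58 CPM), were higher too. Of the 3 lower genes of the list, Egr1 and Egr2 encode factors that respond to stimuli, and the last was Fmod (8.71 and 4.16 CPM), a fibril-binding proteoglycan.

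Other named genes were also higher in the Tbx1neo2/neo2 carrier cells. Of 18 angiogenic genes, 2 were higher and 6 lower (median -0.15). Angptl1, an angiopoietin-like protein (chr1:156838562-156861078, plus strand), was at 22.4, 169, 30.4, and 67.5 CPM in the 4 libraries, 7.57-fold higher in Tbx1neo2/neo2 carrier than in Tbx1+/+ members. Agtr2, the type 2 angiotensin receptor, was at 10.49 and 90.04 CPM in the 2 carrier libraries. Dkk2, a WNT antagonist, was at 42.5 and 182 CPM, and Wnt5a at 46.3 and 134 CPM. Grem1, which blocks BMP ligands, was at 5.04 and 29.6 CPM. Of 21 genes of collagen processing, 4 were higher, 3 lower, and 14 not called (median -0.12), and none of 19 was called in female cells alone. The lysyl oxidases Lox (44.2 and 133 CPM) and Loxl2 (66.3 and 145 CPM) were higher, while Plod2, a lysyl hydroxylase, was lower (178 and 109 CPM). Sox9, the chondrogenic transcription factor, was at 44.3 and 139 CPM although Col2a1 had been required to be 0, and Col9a1 was lower (82.4 and 12.6 CPM). Of the 4 cartilage markers tested, 3 were higher and none lower (median 1.09), and in female cells alone neither of 2 tested was called (median -0.97). The wider chondrogenic list went both ways, with 3 higher and 3 lower of 11 (median -0.31). In female cells alone 1 of its genes was higher and 2 lower of 8 (median -0.46). Agtr2 was called higher in female cells alone as well, while Angptl1, Dkk2, Wnt5a, Lox, and Sox9 were not called there.

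**Figure D2:**
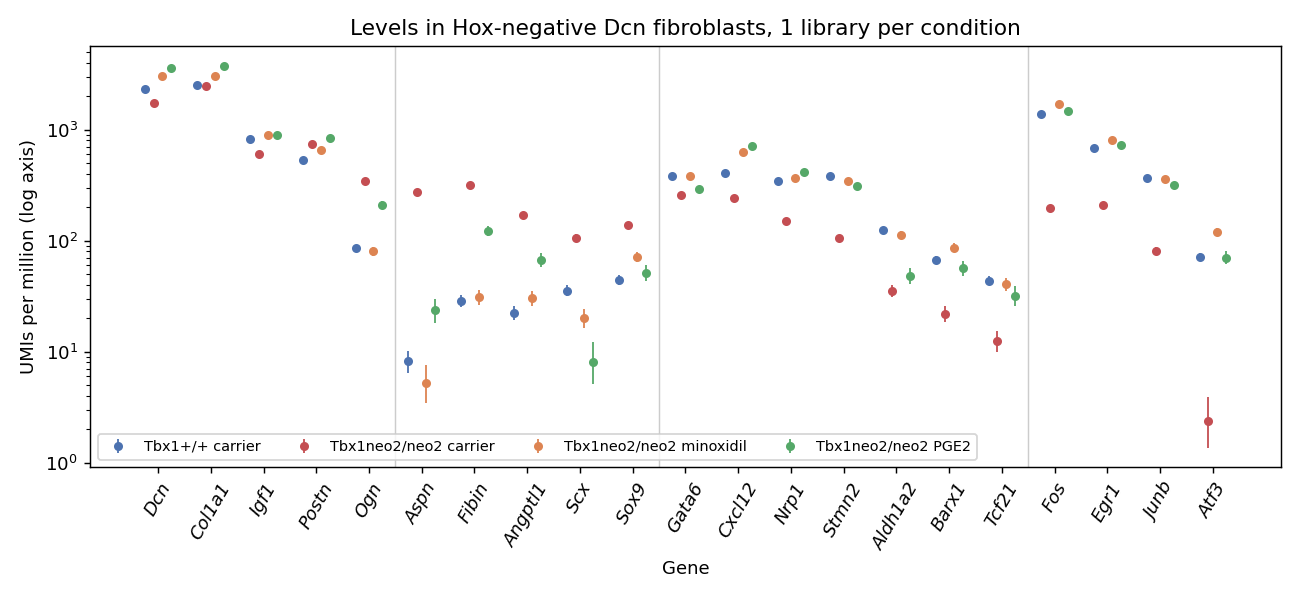
Levels in CPM (UMIs per 1000000; y axis, log scale) of 21 genes (x axis) in Hox-negative Dcn fibroblasts of the 4 libraries, with exact 95% counting intervals. Aspn, Fibin, and Angptl1 are highest and Barx1, Tcf21, Fos, and Atf3 lowest in the Tbx1neo2/neo2 carrier library.

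Collagens went both ways. Of 15 fibrillar and fibril-associated collagens tested, 4 were higher, 2 lower, and 9 not called, with a median log2 ratio of 0.29, where 11.7% of all genes were called in either direction. In female cells alone none was higher and 5 were lower of 13 tested, with a median of -0.60 over these 13. Col14a1, which binds to fibril surfaces, was at 24.7 and 106 CPM in the Tbx1+/+ and Tbx1neo2/neo2 carrier cells. Col1a1 was not called, with a log2 ratio of -0.04 (-0.08 to -0.003), but in female cells alone it was called lower, at 2818 CPM (2746 to 2891) and 1568 (1443 to 1700). Col3a1 was at 3011 and 3298 CPM. Of 17 basement membrane genes, none was higher and 8 were lower (median -0.52), while in female cells 1 was higher and none lower of 13 (median -0.25). Lama2, a laminin chain around muscle and nerve, was at 38.4 and 13.8 CPM, and Col4a5 at 49.8 and 23.8 CPM. Of 13 genes shared by fibroblasts of many adult organs (the universal fibroblast list), 6 were lower and none higher (median -0.55), and in female cells 1 was lower and none higher of 9 (median -0.33). Dpp4 (7.76 and 1.04 CPM), Scara5 (61.3 and 29.4 CPM), and Sfrp2 (805 and 464 CPM) were among them. Of 13 matricellular proteins, 6 were lower, with Smoc2 at 133 and 36.4 CPM, and 2, Tnc and Thbs4, were higher. In female cells 4 of 12 were lower and 1 higher (median -0.92), and Tnc was not called, with a log2 ratio of -0.65.

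The study's own markers of capsular fibroblast groups, which it used to name groups in these same samples and are no independent evidence, gave no common direction. The study prints Adh1a2 in the list for its first group, which was read here as Aldh1a2. In that list, Capn6 (76.6, 140, 80.5, and 90.4 CPM) and Svep1, a large adhesion protein (12.3, 25.3, 21.7, and 34.8 CPM), were higher and Aldh1a2 lower in Tbx1neo2/neo2 carrier than in Tbx1+/+ members, a count of 2 higher and 1 lower of 4 (median 0.57). In female cells alone none of these 4 was called (median -0.31), nor was either gene of the list for group 2b (median -0.15). Itm2a, a membrane protein, was at 1042, 1261, 768, and 948 CPM and was lower with minoxidil. In the list for group 2b, Adamts2, which trims procollagen (28.4, 47.2, 29.6, and 34.8 CPM), was higher and Bgn (biglycan; 143, 131, 149, and 202 CPM) not called. Of the third list, neither Igf1 nor Olfml3, an olfactomedin-like matrix protein (131, 129, 139, and 155 CPM), was called in any library comparison. Of 8 small leucine-rich proteoglycans tested, 4 were higher and 2 lower (median 0.53), and in female cells 1 was higher and none lower of 3 (median -0.20).

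Growth factors toward the thymic epithelium went both ways, 7 higher and 8 lower of 22 (median -0.24), and in female cells none was higher and 1 lower of 16 (median -0.11). Fgf10 (48.4 and 25.6 CPM), Bmp4 (93.4 and 51.9 CPM), and the chemokine Cxcl12 (405 and 244 CPM) were lower in the Tbx1neo2/neo2 carrier cells, though of the 3 only Bmp4 was called in female cells alone. Fgf7 (7.45 and 22.3 CPM) and Kitl (16.47 and 32.2 CPM) were higher. In the IGF axis, 4 of 16 genes were higher and 2 lower (median 0.07). Igf2 was lower at 1007 and 633 CPM, while Igf1 had a log2 ratio of -0.43 (-0.50 to -0.35), under the 1.5-fold limit. The binding protein Igfbp3 (55.9 and 98.4 CPM) and Pappa, a protease that frees IGFs (39.9 and 97.5 CPM), were higher. In the retinoic acid list, 4 genes were higher and 4 lower of 15 (median -0.31). The retinaldehyde dehydrogenases differed in direction, with Aldh1a2 at 126 and 35.4 CPM and Aldh1a3 at 0.630 and 27.5 CPM. In female cells Aldh1a2 was not called, at 109 (94.9 to 124) and 83.1 CPM (56.4 to 118), and the list had none higher and 2 lower of 11 (median -0.24). None of 8 hedgehog pathway genes was called. Of 13 WNT modulators, 4 were higher and 4 lower (median 0.06), and Sfrp1, which binds WNT ligands, was at 478 and 283 CPM.

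Of 34 pharyngeal and neural crest transcription factors tested, 8 were higher and 11 lower (median -0.32). Barx1, a homeobox factor of foregut and pharyngeal mesenchyme that was not on the list (chr13:48662998-48666507, plus strand), was at 67.0, 22.0, 86.3, and 56.2 CPM in the Tbx1+/+ carrier, Tbx1neo2/neo2 carrier, minoxidil, and PGE2 libraries. Tcf21, a factor of visceral mesenchyme, was at 43.6, 12.5, 40.2, and 32.0 CPM, and Hand2, which acts in the pharyngeal arches, at 108, 49.6, 89.8, and 71.4 CPM. For all 3 genes the Tbx1neo2/neo2 carrier library was the lowest. In female cells of the 2 carrier libraries, Barx1 was at 44.2 and 83.1 CPM and called higher, while Hand2 (97.5 and 96.5 CPM) and Tcf21 (41.3 and 32.2 CPM) were not called. Tbx5 (16.7 and 60.3 CPM) and Tbx3 (37.5 and 83.2 CPM), known for limb and heart fields, were higher in the Tbx1neo2/neo2 carrier members than in Tbx1+/+. Gata6 was at 385, 258, 385, and 290 CPM and was not called. Among anterior Hox genes, which the rule did not use, 4 were higher and 5 lower of 13 (median -0.19), and none of 9 was called in female cells alone (median -0.03). Hoxc5 was at 2.20, 19.9, 3.29, and 3.87 CPM, while Hoxa4 (19.2 and 9.06 CPM in the carrier libraries) was lower.

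Of 18 proliferation genes, 3 were higher in the Tbx1neo2/neo2 carrier cells and none lower (median 0.16), and in female cells 1 of 16 was higher (median 0.15). They were the cyclins Ccnd1 (63.1 and 171 CPM) and Ccnd2 (246 and 552 CPM) and the nucleotide reductase subunit Rrm2 (4.41 and 8.77 CPM). In female cells alone Ccnd2 was not called, at 268 and 295 CPM. All 4 mesothelial markers were lower, with Upk3b at 50.2 and 3.27 CPM, and so were all 3 tested in female cells alone. Both tested smooth muscle genes were higher (median 1.16), but the 1 tested in female cells alone was called lower (log2 ratio -1.56). Of epithelial and parathyroid genes, all 2 tested of each list were lower, and neither of 2 epithelial genes was called in female cells alone. Stmn2, a microtubule regulator best known in neurons, was at 379, 105, 342, and 311 CPM in the 4 libraries, and Nrp1, a receptor for semaphorins and VEGF, at 342, 149, 369, and 419 CPM. Both were lowest in the Tbx1neo2/neo2 carrier library over all its cells. In female cells alone Stmn2 (303 and 346 CPM) and Nrp1 (333 and 415 CPM) were not called between the carrier libraries, with log2 ratios of 0.19 and 0.32.

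**Figure D3:**
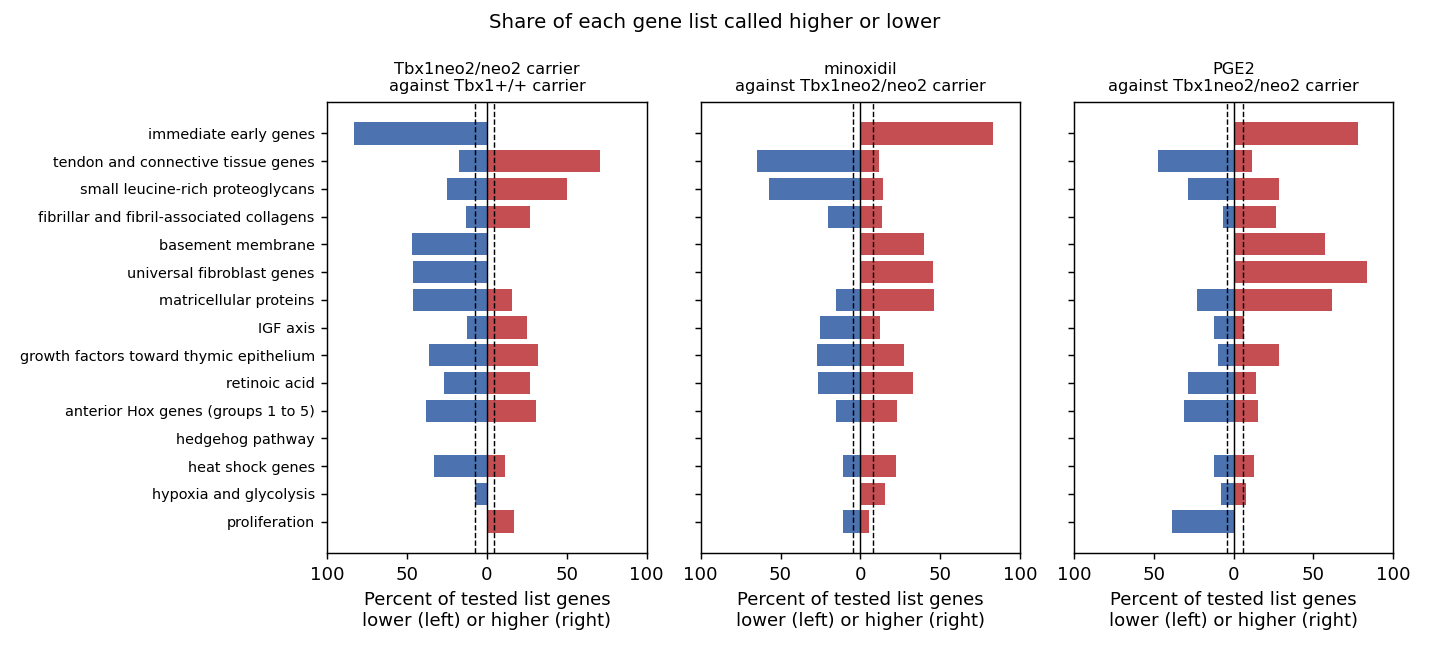
Percent of the tested genes of 15 lists (y axis) called lower (left) or higher (right) in the 3 library comparisons, with dashed lines at the percent of all tested genes called in each direction. The immediate early bar points left in the first panel (15 of 18 genes) and right in the other 2 (15 and 14 of 18), and the hedgehog list has no bar. The 3 panels share the Tbx1neo2/neo2 carrier library.

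Immediate early genes encode transcription factors and regulators that respond to stimuli within minutes. Several are known targets of CREB, which binds the cyclic AMP response element. Of 18 tested, none was higher and 15 were lower in the Tbx1neo2/neo2 carrier members than in Tbx1+/+ (median -1.57). Fos (chr12:85473890-85477273, plus strand) was at 1376 CPM (1352 to 1399), 198 (187 to 209), 1699 (1664 to 1735), and 1473 (1429 to 1518) in the 4 libraries. Atf3 was at 71.2, 2.38, 121, and 70.3 CPM, Junb at 367, 80.4, 361, and 314 CPM, and Dusp1, a phosphatase that turns off MAP kinases, at 137, 27.3, 165, and 122 CPM. For each gene the Tbx1neo2/neo2 carrier library was the lowest and the other 3 lay within 2-fold of one another. Socs3, a cytokine feedback inhibitor that was not on the list, was at 230, 23.2, 218, and 184 CPM. Fosl2 was lower as well (20.7 and 13.1 CPM in the carrier libraries), whereas Klf6, Ier3, and Myc were not called.

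The 250 bases before the RefSeq start of 3 of these genes are shown (GRCm38.p6), because they hold the letters TGACG of the response element, in full (TGACGTCA) or in part. Capitals mark TGACG, or the full TGACGTCA, on the strand of the gene. The regions are chr12:85473640-85473889 (plus strand) for Fos, chr1:134079156-134079405 (minus strand) for Btg2, and chr17:26508473-26508722 (minus strand) for Dusp1.
Fos: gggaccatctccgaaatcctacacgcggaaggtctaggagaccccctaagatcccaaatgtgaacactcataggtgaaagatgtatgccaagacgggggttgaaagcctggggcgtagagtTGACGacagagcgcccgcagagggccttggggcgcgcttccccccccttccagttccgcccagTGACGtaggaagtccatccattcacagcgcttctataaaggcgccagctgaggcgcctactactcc
Btg2: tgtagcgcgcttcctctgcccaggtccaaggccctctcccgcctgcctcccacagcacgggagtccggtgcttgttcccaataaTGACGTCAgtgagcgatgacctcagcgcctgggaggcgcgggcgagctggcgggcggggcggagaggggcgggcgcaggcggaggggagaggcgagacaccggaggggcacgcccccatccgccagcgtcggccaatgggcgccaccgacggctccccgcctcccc
Dusp1: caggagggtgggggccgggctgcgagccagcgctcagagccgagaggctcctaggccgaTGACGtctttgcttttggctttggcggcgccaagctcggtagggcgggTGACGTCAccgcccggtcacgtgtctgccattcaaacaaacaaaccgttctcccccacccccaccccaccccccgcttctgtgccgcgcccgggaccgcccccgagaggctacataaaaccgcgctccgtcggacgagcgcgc
Searched on both strands of the same window, TGACGTCA was present in 2 of the 15 immediate early genes with a promoter entry (Dusp1 and Btg2) and in 1.77% of 27025 genes. TGACG, which lies within it, was present in 9 of the 15 and in 19.8% of all genes. The CArG box, bound by serum response factor, was present in 1 of the 15 (Zfp36) and in 1.62% of all genes. These matches describe letters and say nothing of binding in these cells.

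The lower immediate early RNA of the Tbx1neo2/neo2 carrier library was not particular to these fibroblasts. The sum over 19 genes was 7719, 2822, 8791, and 8711 CPM in the members of the Tbx1+/+ carrier, Tbx1neo2/neo2 carrier, minoxidil, and PGE2 libraries. It was 6165, 3113, 6954, and 7936 CPM in Kcnj8-positive mesenchymal cells, and 4335, 2293, 3427, and 4780 CPM in Epcam-positive cells. In Cdh5-positive cells it was 2492, 1504, 3539, and 3804 CPM, and in Ptprc-positive cells 2541, 1686, 3801, and 3841 CPM. The Tbx1neo2/neo2 carrier library was the lowest in all 5 classes.

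**Figure D4:**
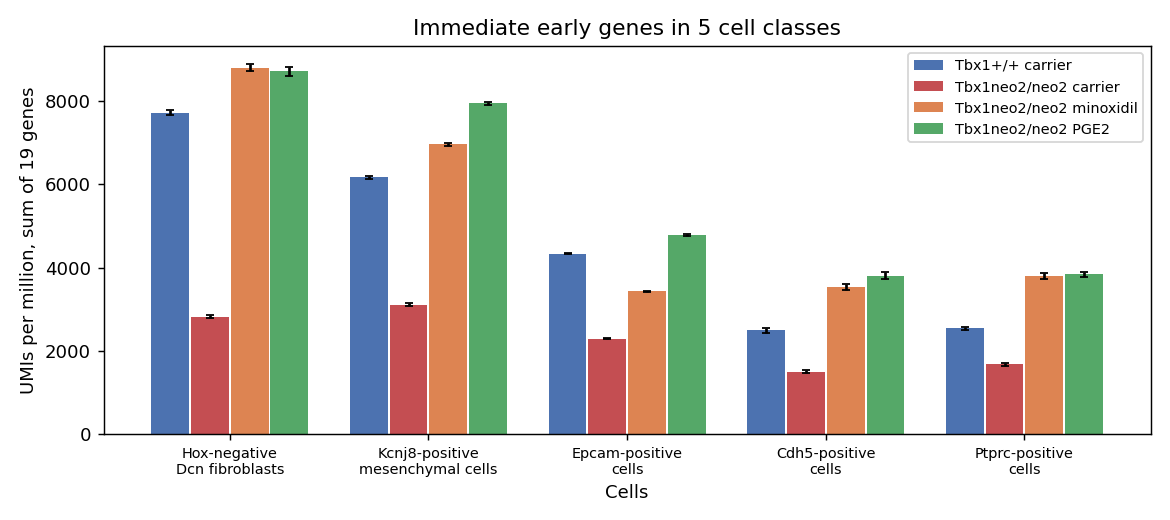
Summed CPM (UMIs per 1000000) of 19 immediate early genes (y axis) in 5 cell classes (x axis) of the 4 libraries, with exact 95% counting intervals. The bar of the Tbx1neo2/neo2 carrier library is the lowest in each class, from 2822 against 7719 to 8791 in Hox-negative Dcn fibroblasts to 1686 against 2541 to 3841 in Ptprc-positive cells.

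The 29 female cells of the Tbx1neo2/neo2 carrier library differed from its 414 male cells. Aspn was at 21.4 CPM (9.26 to 42.2) in the female and 288 (274 to 303) in the male cells, and Fibin at 59.0 (36.9 to 89.3) and 338 (323 to 353). Barx1 was at 83.1 (56.4 to 118) and 19.7 (16.2 to 23.7), and Stmn2 at 346 (289 to 411) and 97.5 (89.5 to 106). Fos, in contrast, was at 182 and 198 CPM, low in both. Within this library 232 genes (2.17% of 10670) were higher and 276 (2.59%) lower in female than in male cells, and within the Tbx1+/+ carrier library 54 (0.472% of 11441) and 86 (0.752%).

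The carrier libraries were then compared within each sex. Of 12026 genes in male cells, 520 (4.32%) were higher and 852 (7.08%) lower, and of 8755 in female cells, 91 (1.04%) were higher and 186 (2.12%) lower. Of the 554 genes higher in Tbx1neo2/neo2 carrier members, 462 of 539 tested were called higher in male cells alone and 21 of 269 in female cells alone, with 5 called lower. Of the 909 lower genes, 754 of 883 were called lower in male and 87 of 638 in female cells, with 11 called higher. In female cells the 269 genes called higher had a median log2 ratio of 0.14, against 0.88 in all cells, and the 638 called lower had -0.52 against -0.97. In male cells the medians were 1.18 and -1.24. Most typed members of both libraries were male, so values close to those in all cells follow by construction. Barx1 was lower in male cells (log2 ratio -1.79) and higher in female cells (0.91), and Stmn2 was lower in male cells (-2.10) and not called in female cells (0.19). In female cells the tendon list had 3 genes higher and 1 lower of 9 tested (median -0.29), against 12 and 3 of 17 in male cells (median 1.56). The immediate early list was lower in 15 of 18 genes in female cells and 14 of 18 in male cells, with medians of -1.62 and -1.45. In female cells the pharyngeal transcription factors had 1 gene higher and 1 lower of 25 (median 0.06), the WNT modulators none higher and 2 lower of 7 (median -0.64), and the IGF axis none higher and 2 lower of 14 (median -0.003). Sex and embryo of origin cannot be told apart, since the cells of 1 sex may come from few embryos.

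**Figure D5:**
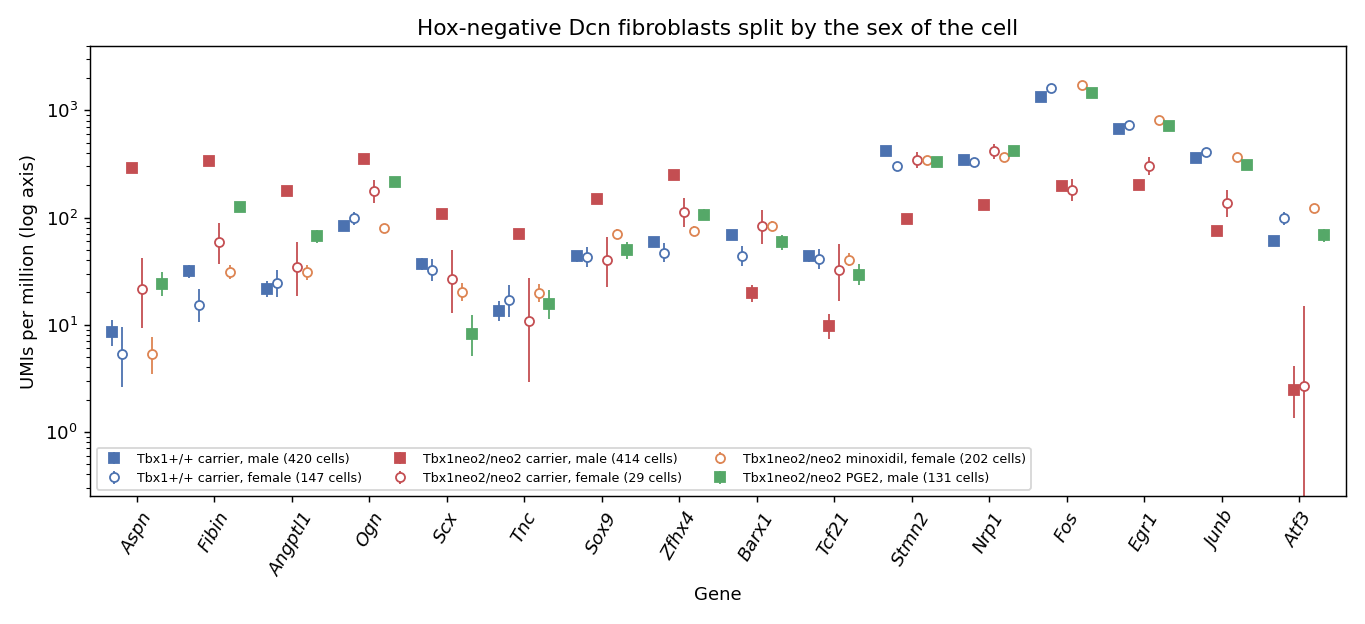
Levels in CPM (UMIs per 1000000; y axis, log scale) of 16 genes (x axis) in female (open circles) and male (filled squares) Hox-negative Dcn fibroblasts, with exact 95% counting intervals. In the Tbx1neo2/neo2 carrier library Aspn is at 288 in male and 21.4 in female cells, while Fos is low in both.

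Minoxidil members were compared with the same Tbx1neo2/neo2 carrier members, so the 3 comparisons share that library. With minoxidil 11 of 17 tendon and connective tissue genes were lower and 15 of 18 immediate early genes higher. Of 12023 genes, 950 (7.9%) were higher and 521 (4.33%) lower, with a median log2 ratio of 0.05. Aspn was 52.4-fold lower (log2 ratio -5.71, -6.38 to -5.10), Fibin 10.3-fold lower, and Ogn 4.31-fold lower, from the levels given above. Of 17 tendon genes, 2 were higher (Egr1 and Egr2) and 11 lower (median -1.65). Of 18 immediate early genes, 15 were higher and none lower (median 1.85), with Fos 8.59-fold and Atf3 50.8-fold higher. Of 15 basement membrane genes, 6 were higher and none lower (median 0.47), but in female cells alone 2 were higher and 2 lower of 14 (median 0.11). Of 11 shared fibroblast genes, 5 were higher and none lower (median 0.58), and in female cells 2 were higher and none lower of 9 (median 0.49). Markers of other cell types also differed, with 3 of 4 mesothelial genes higher and none lower (median 1.79) and both tested smooth muscle genes lower (median -1.71). The 1 smooth muscle gene tested in female cells alone was not called, with a log2 ratio of 1.03. Their part in these differences was not tested.

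Among single genes, Cxcl12 was at 628 CPM with minoxidil against 244 CPM in the Tbx1neo2/neo2 carrier cells, and Aldh1a2 at 112 against 35.4 CPM. In female cells alone Cxcl12 was called higher and Aldh1a2 was not called, at 113 against 83.1 CPM. Barx1, Tcf21, Hand2, Stmn2, and Nrp1 were called higher with minoxidil, and none of the 5 in female cells alone. Leaving out cells that held a UMI of Sox9, Col9 genes, or Acan left 31 minoxidil and 125 Tbx1neo2/neo2 carrier members. In these the log2 ratio of Stmn2 turned to -1.16. A deeper cell is more likely to hold such a UMI, and the median depth of all members was 24344 against 13091.5 UMIs. Igf1 was not called, with a log2 ratio of 0.56 (0.48 to 0.65), and neither was Col1a1 (0.31, 0.26 to 0.35), although Col1a1 was called higher in female cells alone (3051 against 1568 CPM). Ccnd1 (58.0 against 171 CPM) and Ccnd2 (290 against 552 CPM) were lower, though Ccnd2 was not called in female cells alone. Nme2 (93.2 against 9.51 CPM) was higher, but its reads can be shared with near-identical copies or read-through transcripts, so its value is uncertain.

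Set against the 29 female Tbx1neo2/neo2 carrier cells, the 202 female minoxidil cells showed part of these differences, with 289 (2.7%) genes higher and 163 (1.53%) lower of 10685. Aspn was at 5.29 against 21.4 CPM and Fibin at 31.2 against 59.0 CPM, both called lower, and Fos at 1715 against 182 CPM, called higher. Barx1 (83.9 against 83.1 CPM), Stmn2 (344 against 346 CPM), Tcf21 (40.4 against 32.2 CPM), Hand2 (89.6 against 96.5 CPM), and Nrp1 (364 against 415 CPM) were not called, the last 2 with log2 ratios of -0.11 and -0.19. The tendon list had 3 genes lower and 1 higher of 12 tested (median -0.33), and the immediate early list 15 higher of 18 (median 1.55). Tnc, Tbx5, Sox9, and Lox, lower when all cells were used, had log2 ratios of 0.89, 0.97, 0.80, and 0.18 in female cells.

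With PGE2, 10 of 12 shared fibroblast, 8 of 14 basement membrane, and 14 of 18 immediate early genes were higher than in the Tbx1neo2/neo2 carrier members, and 8 of 17 tendon genes were lower and 2 higher. Of 11560 genes, 714 (6.18%) were higher and 502 (4.34%) lower, with a median log2 ratio of 0.01. Of 12 shared fibroblast genes, 10 were higher and none lower (median 1.05). Pi16, a marker of adventitial fibroblasts, was at 16.52 CPM (12.1 to 22.0) with PGE2 against 0.743 (0.241 to 1.73), and at 3.04 and 2.32 CPM in the Tbx1+/+ and minoxidil members. Mfap5, a microfibril protein, was at 161 against 43.7 CPM. Of 14 basement membrane genes, 8 were higher and none lower (median 0.73), and 8 of 13 matricellular proteins were higher and 3 lower (median 0.63). Col14a1 was at 227 CPM with PGE2, above 106 CPM in the Tbx1neo2/neo2 carrier and 24.7 and 29.6 CPM in the Tbx1+/+ and minoxidil members, and Col1a1 was called higher (log2 ratio 0.60, 0.55 to 0.65).

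The tendon list had 2 genes higher and 8 lower of 17 with PGE2 (median -0.99). Aspn was 11.6-fold lower, Fibin 2.58-fold lower, and Angptl1 2.505-fold lower. In the 38 PGE2 and 125 Tbx1neo2/neo2 carrier members without a UMI of Sox9, Col9 genes, or Acan, the log2 ratio of Fibin turned to 0.09. That of Angptl1 was -0.80 in the same cells. Scx was at 8.09 CPM against 106 CPM, and Thbs4 had no UMI, at least 40.0-fold lower with the PGE2 level set at 3 counts over the library. Agtr2 was not called, at 78.4 against 90.04 CPM, with a log2 ratio of -0.20 (-0.51 to 0.11). With minoxidil it was at 11.03 CPM. Of 18 immediate early genes, 14 were higher and none lower (median 1.66), and Fos was 7.44-fold higher. Hpgd, the enzyme that inactivates prostaglandins, was at 57.7 against 8.91 CPM, and at 53.2 and 50.5 CPM in the Tbx1+/+ and minoxidil members. Of 5 pericyte markers, 3 were higher and none lower with PGE2 (median 0.87), and 3 of 4 cartilage markers were lower and 1 higher, and their part in the other differences was not tested. Of 18 proliferation genes, 7 were lower and none higher (median -0.52). Tbx18, a factor of mural and epicardial cells (13.01 against 27.6 CPM), and Upk3b were lower, the latter with 1 UMI in PGE2 members. In male cells alone 725 (6.4%) of 11332 genes were higher and 503 (4.44%) lower, with Aspn at 24.1 against 288 CPM, Barx1 at 58.6 against 19.7 CPM, and 9 tendon genes lower and 2 higher of 16 tested (median -0.96).

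Hox-positive Dcn fibroblasts meet every other part of the rule and carry at least 1 posterior Hox UMI. The Tbx1neo2/neo2 carrier library held 487 of them, and the Tbx1+/+, minoxidil, and PGE2 libraries 7, 4, and 9. In the Tbx1neo2/neo2 carrier library their posterior Hox UMIs had a median of 3 and a maximum of 33, and 135 cells had exactly 1, so cells just outside the rule differ from members by a single UMI. Among 12086 genes tested within that library, 298 (2.47%) were higher and 370 (3.06%) lower in Hox-positive cells, 5.53% in all, and 433 of the 435 typed Hox-positive cells were male.

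Both groups carried the connective tissue genes of this library. Fibin was at 367 CPM in Hox-positive and 318 CPM in Hox-negative cells, Angptl1 at 207 and 169 CPM, and Scx at 131 and 106 CPM, none of them called. Aspn was lower in Hox-positive cells (179 and 274 CPM), and Ogn (585 and 345 CPM) and Zfhx4 (446 and 238 CPM) were higher. Aspn was not confined to Dcn fibroblasts either, since mesenchymal-gate cells of the library with Col2a1 had 240 CPM and those with high Acta2 349 CPM. Of 28 pharyngeal and neural crest transcription factors, 3 were higher and 9 lower in Hox-positive cells (median -0.34). Barx1 was at 1.55 CPM (0.773 to 2.77) in Hox-positive and 22.0 (18.6 to 25.8) in Hox-negative cells, and Gata6 was lower at 138 and 258 CPM. Stmn2 (14.2 and 105 CPM), Cxcl12 (87.2 and 244 CPM), Aldh1a2 (8.86 and 35.4 CPM), and the guidance genes Slit2 (20.7 and 55.7 CPM) and Epha3 (43.3 and 135 CPM) were lower in Hox-positive cells as well. Markers of other cell types also differed, with all 3 tested mesothelial and 3 of 5 pericyte genes lower (medians -1.835 and -1.29). Both tested smooth muscle genes and 2 of 4 cartilage markers were higher (medians 0.85 and 0.915). The part of these cell types in the differences was not tested.

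Of 14 anterior Hox genes, 4 were higher and 3 lower in Hox-positive cells (median -0.46), with Hoxc5, anterior to the groups used by the rule, higher at 58.5 and 19.9 CPM. Among single homeobox genes, En1, a factor of ventral limb ectoderm and dermis, was at 97.2 CPM in Hox-positive and 24.96 CPM in Hox-negative cells of the Tbx1neo2/neo2 carrier library, and it had no UMI in Tbx1+/+ members. En1 and Irx3 (58.5 and 17.8 CPM) were called higher in Hox-positive cells. Immediate early genes were low in both groups, with 2 of 18 called higher and 4 lower (median -0.11), and Fos was at 146 and 198 CPM.

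The members were also described cell by cell. After thinning, 5 of the connective tissue genes (Aspn, Fibin, Angptl1, Agtr2, and Ogn) and 5 others (Gata6, Barx1, Tcf21, Hand2, and Stmn2) were counted in single cells. These genes were chosen after their levels had been seen, so differences in these shares between libraries follow from that choice. At least 3 of the first 5 were detected in 46.3% (41.8 to 50.8) of Tbx1neo2/neo2 carrier members, and in 0.922%, 1.47%, and 12.9% of Tbx1+/+, minoxidil, and PGE2 members. At least 3 of the second 5 were detected in 7.76% of Tbx1neo2/neo2 carrier members and in 29.9%, 26.5%, and 22.1% of the others. Both conditions were met by 0 of 490 Tbx1neo2/neo2 carrier members, with an exact upper bound of 0.75% for cells with these UMIs after thinning, and by 2, 1, and 1 cells of the other libraries. This bound does not limit cells that express the genes, since some of the 10 genes were detected in few thinned members, such as Tcf21 in 4.08% of the Tbx1neo2/neo2 carrier members. In the Tbx1neo2/neo2 carrier members, the first principal component (5.02% of the variance) had ribosomal protein genes at one end and Tpm1, Aspn, Tnc, Enah, Runx1, and Scx at the other. In Tbx1+/+ members (5.68%) the end opposite the ribosomal genes was led by Col1a1, Col1a2, Igfbp5, Cdkn1c, and Alcam.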

How the data were processed

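One droplet library per condition was sequenced. Per the labels, the deposited files hold filtered UMI counts for each gene in each cell. The submitters' processing notes name Cell Ranger 5.0.1, mm10, and Seurat as what the authors used. Doublet removal before deposit is not given in the sources used here. Scrublet (scanpy 1.11.5) marked 4.94%, 3.33%, 2.19%, and 1.81% of kept cells and no member. No marked cell was removed. In the Tbx1neo2/neo2 carrier library its automatic threshold marked none, and the mean threshold of the other libraries was used.

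The counts of all members of a library were summed and scaled to CPM, with exact Poisson 95% intervals, exact binomial ones for shares, and a limit of 3 counts where a level was 0. Rule genes and mitochondrial genes were not tested. Bounds of a log2 ratio come from the ends of both intervals. No p-value was computed. The members and gene lists were chosen with earlier results of these data known. Genes were named if they were markers, list members, Tbx1, among the 10 largest or smallest ratios of a comparison with at least 50 CPM in 1 group, or among the 10 at each end of a first principal component. Others were named after their values were seen, and some genes that met the rule are not reported here. The 4 Y-linked genes and Xist typed cells. For shares, cells were thinned to 5000 UMIs. On simulated counts for the 3 library comparisons, 89.0%, 93.5%, and 85.5% of 200 genes changed 3-fold were called, and 0.244%, 0.161%, and 0.255% of unchanged genes. These were Poisson counts, the model that the intervals assume, without spread between cells or embryos. The shares are therefore no error rates for the real calls. Positions are from GENCODE M21 and promoters from RefSeq GRCm38.p6, where 15 of 19 immediate early genes matched. Python 3.11.15, numpy 2.4.6, scipy 1.17.1, pandas 2.3.3, matplotlib 3.10.9, and edgeR 4.0.16 (for TMM factors only) in R 4.3.3 were used.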

Additional observations from a re-analysis of the deposited data

Results flagged for a closer look

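Barx1, the homeobox factor of foregut mesenchyme, went in opposite directions in the cells of each sex. Its log2 ratio of Tbx1neo2/neo2 carrier to Tbx1+/+ carrier was -1.79 in male Hox-negative Dcn fibroblasts and 0.91 in female ones. The female value rests on 29 Tbx1neo2/neo2 carrier cells with 31 Barx1 UMIs, and the difference between the sexes was not tested.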

How the results depend on the processing

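No paired analysis was possible because each condition has 1 library. Comparisons by sex, without cells rich in hemoglobin, and with the borrowed Scrublet threshold were chosen after the data were seen. Of the values that answer a comparison, 319 stayed the same over the alternatives, 56 moved, and 3 reversed. Of those for single genes, 1697 stayed the same, 368 moved, and 20 reversed. TMM scaling changed no verdict.

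The share of members among mesenchymal-gate cells was 29.0% for Tbx1+/+ carrier and 10.9% for Tbx1neo2/neo2 carrier with at least 3 Dcn UMIs, and 22.7% and 7.57% with at least 10. Allowing 1 Hox UMI gave 12.2% for Tbx1neo2/neo2 carrier. For Tbx1+/+ carrier, Tbx1neo2/neo2 carrier, minoxidil, and PGE2, the shares were 39.8%, 21.5%, 43.2%, and 42.8% with the rule on thinned cells, 18.6%, 7.65%, 17.1%, and 14.3% with a mitochondrial limit of 5%, and 6.32%, 2.40%, 3.59%, and 4.95% with no UMI of Sox9, Col9 genes, or Acan.

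Of genes lower in Tbx1neo2/neo2 carrier than in Tbx1+/+, 469 were called at the 5% mitochondrial limit. Without Sox9, Col9, or Acan UMIs there were 244 higher and 368 lower, in female cells 91 and 186, in thinned member cells 344 and 521, and at 2-fold 332 and 570. For minoxidil, 785 were lower with the rule on thinned cells. The counts higher and lower were 551 and 340 at the 5% limit, 306 and 206 without Sox9, Col9, or Acan, 289 and 163 in female cells, 422 and 259 in thinned members, and 533 and 310 at 2-fold. For PGE2, 792 were lower with the rule on thinned cells and 442 higher at the 5% limit. The counts were 332 and 194 without Sox9, Col9, or Acan, 410 and 264 in thinned members, and 388 and 278 at 2-fold. For Hox-positive cells they were 167 and 215 in thinned cells and 174 and 222 at 2-fold, with 166 higher at the 5% limit. Thinned members and the 2-fold limit lower these counts by construction. In female cells the ratios were smaller too, with a median of 0.14 against 0.88 for genes called higher, and the cause was not tested.

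For Tbx1neo2/neo2 carrier against Tbx1+/+, the median log2 ratio of tendon genes was -0.29 over 9 genes in female cells. Against 1.58 over 17 genes in all cells this was a reversal, though over unlike sets of genes. For minoxidil the median was -0.33 over 12 genes in female cells. It was -2.22 for minoxidil with the rule on thinned cells and -1.60 for PGE2 at the 5% limit. Proteoglycans were at -0.20 over 3 genes in female cells of the carrier libraries, against 0.53 over 8 in all cells. For minoxidil they were at 0.50 over 6 genes in female cells, a reversal from -1.315 over 7 in all cells. For PGE2 they were at 0.21 over 4 genes without Sox9, Col9, or Acan, a reversal from -0.71 over 7 in all members. These medians rest on unlike sets of tested genes, so a reversal need not be one in the same genes. Leaving out cells with Sox9, Col9, or Acan UMIs put chondrogenic genes at -0.62 over 5 genes for Tbx1neo2/neo2 carrier, against -0.31 over 11. The 5% limit put immediate early genes at 1.87 for PGE2. In female cells of the carrier libraries, the log2 ratios of Rgcc (-0.33), Scx (-0.29), Tnc (-0.65), Sox9 (-0.089), Barx1 (0.91), Nrp1 (0.32), Fgf10 (0.22), Stmn2 (0.19), and Adamts5 (0.12) had the opposite sign to that in all cells. For minoxidil in female cells so had Tbx5 (0.97), Tnc (0.89), Sox9 (0.80), Hand2 (-0.11), Nrp1 (-0.19), Stmn2 (-0.0071), and Lox (0.18). Without Sox9, Col9, or Acan, Stmn2 was at -1.16 for minoxidil, and Ogn (0.0028), Fibin (0.088), and Smoc2 (-0.85) changed sign for PGE2. The cause was not tested. With 29 female Tbx1neo2/neo2 carrier cells and 142 PGE2 members, small differences in low genes are not detectable at this depth.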
